A study of Mus musculus with 4 samples.

Results

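Colony-stimulating factors and epithelial cytokines are secreted or released proteins through which tumour cells act on myeloid, mast and lymphoid cells. Transcript levels of 9 such genes, Csf1, Csf2, Csf3, Il34, Kitl, Il1a, Il18, Il33 and Tslp, were examined in 4T1 cells, an established mouse mammary carcinoma line of epithelial type. The genes were chosen by symbol from the 24411 listed, and all 9 were found. None was listed at 0 in all 4 libraries: 7 were above 0 in every library, Il18 was listed at 0 in 1 library and Il33 in 3.

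The study compared 2 control libraries with 2 libraries labelled CD95ko, made by targeting Fas, the gene of the death receptor CD95. Per the labels' protocols, 4T1 cells were transduced with lentiCas9-Blast and selected in blasticidin, and a pair of synthetic guides against exon 9 was transfected. The knockout lines are single-cell clones called FAS54 and FAS69 in the protocols, so each knockout library is 1 clone. The protocols name an untransduced control and the Cas9-expressing line (vCas9) as the other RNA sources, without a title that tells which is control 1 or control 2; the name of the file deposited for control 2 points to the Cas9 line. As the protocols describe them, the clones share Cas9 and blasticidin selection with only 1 of the 2 controls. Nothing says that a line was cultured more than once, so the spread between libraries of a group includes differences between lines or clones, and p-values measure only the spread between these samples.

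CSF1 and IL-34 are both ligands of the receptor CSF1R, which maintains macrophages and monocytes. CSF2 (GM-CSF) acts on macrophages, granulocytes and dendritic cells, and CSF3 (G-CSF) drives production and release of neutrophils. KITL is stem cell factor, the ligand of KIT on mast cells and progenitors. IL-1 alpha, IL-18 and IL-33 belong to the IL-1 family and lack a conventional signal peptide. TSLP is an epithelial cytokine that acts through CRLF2 paired with the IL-7 receptor chain. 4T1 tumours are known for G-CSF production and for neutrophil expansion in the host.

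Values are TPM (transcript abundance scaled for transcript length and to the same sum per library), so levels of different genes can be compared. Read depth is unknown, and no counting interval can be given. All 10 epithelial markers were above 0 in every library, at widely differing levels. Krt18 was 1707 and 1753 TPM in the controls and 2412 and 5160 TPM in the libraries labelled knockout. The lowest of them, Grhl2, was 22.8 and 14.6 TPM in the controls and 21.0 and 26.9 TPM in the libraries labelled knockout. Of 12 leukocyte and macrophage markers, 10 were listed at 0 in all 4 libraries, including Ptprc (CD45), Adgre1 and Lyz2, and the list summed to 42.1 to 45.8 TPM in the controls and 40.1 and 151 TPM in the libraries labelled knockout, made up of Cd68 and Csf1r. Mast cell markers were at 0 for 6 of 7 genes and endothelial markers for 5 of 6. The 8 fibroblast markers, 5 of them at 0 throughout, summed to between 0.97 and 4.52 TPM. Fas itself stood at 49.4 and 39.2 TPM in controls 1 and 2, 15.8 TPM in the library labelled knockout 1 and 49.5 TPM in the library labelled knockout 2. TPM per gene cannot tell exon 9 apart from the rest of the transcript, so this neither checks nor refutes the deletion, and groups are named as labelled.

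Csf1 was the member with the smallest p-value. Control 1 had 524 TPM and control 2 had 346 TPM, against 91.7 TPM in the library labelled knockout 1 and 130 TPM in the library labelled knockout 2. Both knockout values lay below both controls, and the knockout mean (111 ± 27.4 TPM, SD, n = 2) was 25.5% of the control mean (435 ± 126 TPM, SD, n = 2). The log2 fold change, on the log2(TPM + 1) scale here and throughout, was -1.95 ± 0.34 (SE; 95% interval -2.72 to -1.18), and the limma p adjusted over the 11167 tested genes was 0.071, above the threshold of 0.05 (unadjusted p = 0.000305). Among the alternative fits with all 4 libraries, it passed the threshold with robust eBayes (limma adjusted p = 0.0389). It also passed with a filter on a mean of at least 5 TPM (0.0426). It did not pass with the pseudocount of 0.1, no filter, no trend, quantile normalization or the replicate block (adjusted p between 0.150 and 0.222). Leaving out 1 library gave log2 fold changes from -2.25 to -1.65. The 4 differences between a knockout and a control library were all between -2.50 and -1.40, whereas the 2 controls differed by -0.60 (control 2 minus control 1) and the libraries labelled knockout by 0.50 (2 minus 1).

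Csf1 lies on mouse chromosome 3 from 107741048 to 107760469 on the reverse strand (GENCODE M21, GRCm38), and its longest coding transcript has 9 exons. Because several subunits of the transcription factors NF-κB and AP-1 were among the genes with low p-values (given further on), the promoter windows of the members were searched for a loose NF-κB pattern, GGG and CC separated by any 5 bases, and for the AP-1 pattern TGANTCA, on both strands. The RefSeq table of GRCm38.p6 held windows for 6 members: Csf1, Csf2, Kitl, Il1a, Il18 and Il33. Each window runs from 250 bases before to 50 after an annotated start. The windows of Csf1 (chr3:107760420-107760719, reverse strand) and Il1a (chr2:129309923-129310222, reverse strand) are shown 5′ to 3′ since they hold the most NF-κB matches and the only AP-1 match; capitals mark matches to either pattern.
Csf1: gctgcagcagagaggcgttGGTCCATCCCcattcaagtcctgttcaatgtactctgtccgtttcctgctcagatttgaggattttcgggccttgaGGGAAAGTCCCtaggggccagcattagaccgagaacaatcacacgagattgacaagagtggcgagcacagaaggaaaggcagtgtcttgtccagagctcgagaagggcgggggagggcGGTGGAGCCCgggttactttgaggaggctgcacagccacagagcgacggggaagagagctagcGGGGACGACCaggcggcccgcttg
Il1a: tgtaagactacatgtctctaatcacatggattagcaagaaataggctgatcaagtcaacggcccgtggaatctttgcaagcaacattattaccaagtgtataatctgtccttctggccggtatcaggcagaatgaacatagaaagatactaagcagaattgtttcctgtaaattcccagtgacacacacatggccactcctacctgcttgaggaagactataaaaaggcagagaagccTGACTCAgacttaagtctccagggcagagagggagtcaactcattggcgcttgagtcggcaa
The Csf1 window has 5 NF-κB pattern matches, 2 of which overlap as GGGAAAGTCC and GGAAAGTCCC, starting 155 and 154 bases before the annotated start, and no AP-1 match. The Il1a window has 1 AP-1 match, TGACTCA, starting 12 bases before the start, and no NF-κB match. Kitl had 3 NF-κB matches, Csf2 had 1, and Il18 and both Il33 windows had none. The windows of Csf2 (chr11:54249850-54250149) and Il18 (chr9:50554450-50554749) lie wholly upstream of the GENCODE M21 gene starts, at 54249667 and 50554827. Their counts therefore do not cover the sequence at those starts. The NF-κB pattern occurs in 50.8% of all 32851 promoter windows and the AP-1 pattern in 7.8%, so a match is a description of the sequence and not of binding. The share of windows with 5 or more matches was not counted, so whether the number in the Csf1 window is unusual is unknown.

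Il34, the other CSF1R ligand, was nearly level across the libraries. Its values were 29.6 TPM in control 1, 22.0 TPM in control 2, 23.6 TPM in the library labelled knockout 1 and 29.7 TPM in the library labelled knockout 2. The groups overlapped, and the log2 fold change was 0.05 ± 0.42 (SE; 95% interval -0.90 to 1.00; limma adjusted p = 0.968). The interval still includes differences of about 2-fold in either direction, and the sign turned under quantile normalization (-0.13). The ratio of Csf1 to Il34 within a library, which does not depend on how libraries are scaled, was 17.7 and 15.7 for the controls, compared with 3.88 and 4.40 for the libraries labelled knockout. Csf1 thus remained the more abundant of the 2 ligands in each library.

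**Figure D1:**
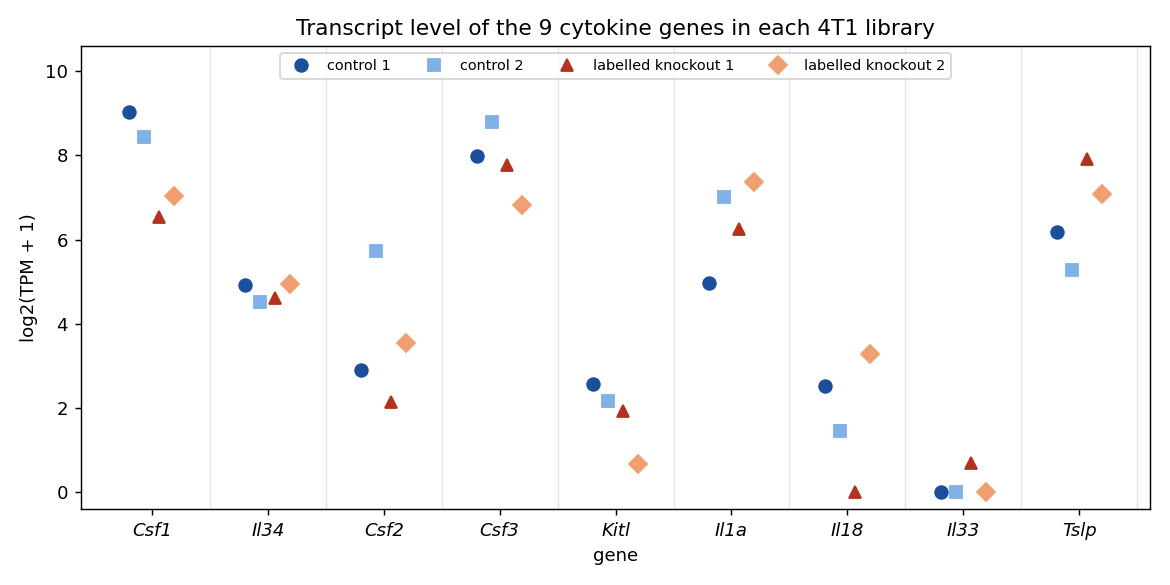
Level of each cytokine gene as log2(TPM + 1) on the vertical axis, with 1 point per library and genes along the horizontal axis. Csf1 lies lower in both libraries labelled knockout (91.7 and 130 TPM) than in both controls (524 and 346 TPM), Tslp lies higher, and Csf2 and Il1a are spread within the control group.

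Among the granulocyte factors, Csf3 was high in every library and Csf2 varied most between the controls. The Csf3 transcript reached 254 and 441 TPM in controls 1 and 2, against 218 TPM in the library labelled knockout 1 and 112 TPM in the library labelled knockout 2. Both knockout values were below both controls, but the library labelled knockout 1 lay close to control 1. The log2 fold change of Csf3 was -1.10 ± 0.41 (SE; 95% interval -2.03 to -0.16; limma adjusted p = 0.270). It passed the threshold in no alternative fit with all 4 libraries (smallest limma adjusted p = 0.226). The log2 fold change was -1.58 when the library labelled knockout 1 was left out. Leaving out the other clone instead gave -0.61.

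Csf2 was 6.44 TPM in control 1 and 52.3 TPM in control 2, and 3.41 TPM and 10.7 TPM in the libraries labelled knockout 1 and 2. Control 2 stood apart from the other libraries, and the knockout and control ranges overlapped. The 8.11-fold difference between the controls (2.84 on the log2 scale) was reached or exceeded by 0.55% of the tested genes. The group difference of -1.47 ± 0.90 (SE; 95% interval -3.51 to 0.57; limma adjusted p = 0.474) therefore rested on control 2, and it was -0.05 without that library. The level of Csf3 exceeded that of Csf2 by 39.4 and 8.44 times in controls 1 and 2 and by 64.0 and 10.4 times in the libraries labelled knockout 1 and 2.

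Csf2 and Csf3 both lie on chromosome 11, Csf2 from 54247271 to 54249667 on the reverse strand and Csf3 from 98701263 to 98703629 on the forward strand (GENCODE M21, GRCm38). AU-rich elements in the 3′ UTR are the classical instability elements of cytokine mRNAs, and the core TATTTAT, which proteins of the ZFP36 family bind, was counted on the transcript strand, overlapping matches included. Csf2 had 9 matches in a 3′ UTR of 317 bases, Il1a had 3 in 1101, Kitl 3 in 4435, Csf3 2 in 669 and Csf1 1 in 2111, while Il34, Il18, Il33 and Tslp had none. At least 1 match was present in 25.5% of 20979 genes, and 3 or more in 3.6%. The 30 bases richest in matches are shown for the 3 members with more than 1 match in such a stretch, with the matches in capitals: Csf2 at chr11:54247328-54247357, reverse strand, Csf3 at chr11:98702985-98703014, forward strand, and Il1a at chr2:129300108-129300137, reverse strand, all within the 3′ UTR.
Csf2: ttttaaaTATTTATTTATTTATTTATTTAT
Csf3: atagttTATTTATctctatttaaTATTTAT
Il1a: ttttatctatgTATTTATaaataTATTTAT
In the Csf2 stretch 5 overlapping matches run without a break, whereas the Csf3 and Il1a stretches each hold 2 separate ones. These 3 genes, as seen only after their values were known, are also the members with a higher level in control 2 than in control 1. Kitl, with 3 matches, and Csf1, with 1, were lower in control 2 (3.53 and 346 TPM) than in control 1 (4.93 and 524 TPM). The median of all tested genes was also lower in control 2 (16.3 TPM) than in control 1 (22.3 TPM). A lower value in control 2 is thus not particular to Kitl and Csf1. Any part of these elements in the levels was not tested.

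Kitl was a weakly expressed member. Controls 1 and 2 had 4.93 and 3.53 TPM, compared with 2.84 TPM in the library labelled knockout 1 and 0.59 TPM in the library labelled knockout 2. Both knockout values lay below both controls, by a small margin for the library labelled knockout 1. The log2 fold change was -1.07 ± 0.69 (SE; 95% interval -2.64 to 0.50; limma adjusted p = 0.501).

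Il1a, which encodes an alarmin active on neighbouring cells without caspase-1 processing, differed more within groups than between them. It was 30.5 TPM in control 1 and 129 TPM in control 2, and 75.1 TPM and 165 TPM in the libraries labelled knockout 1 and 2. The groups overlapped, since control 2 lay between the 2 libraries labelled knockout. The 4.23-fold difference between controls was reached by 2.01% of tested genes. The group difference was 0.81 ± 0.64 (SE; 95% interval -0.64 to 2.27; limma adjusted p = 0.583), and it was -0.21 without control 1. Il1b, which lies 54.6 kb from Il1a on chromosome 2 and whose product does need processing, was only 1.06 to 5.35 TPM, and Il1a exceeded it by 10.5 to 122 times within libraries. The neighbour of Csf2, Il3, 15.6 kb away on chromosome 11, was listed at 0 in all 4 libraries.

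Il18, whose precursor is cut by caspase-1, was 4.76 TPM in control 1, 1.74 TPM in control 2, listed at 0 in the library labelled knockout 1 and 8.79 TPM in the library labelled knockout 2. The 2 libraries labelled knockout lay on opposite sides of the controls, a difference (3.29 on the log2 scale) reached by 1.40% of tested genes. The group difference was -0.34 ± 1.03 (SE; 95% interval -2.68 to 1.99; limma adjusted p = 0.906), and its sign depended on the library left out: it was 1.30 without the library labelled knockout 1. With a pseudocount of 0.1 in place of 1, the difference was -1.67. Casp1, the processing enzyme, had the same order of libraries, at 9.18 and 1.83 TPM in the controls and 1.10 and 39.2 TPM in the libraries labelled knockout 1 and 2. Il33, a nuclear alarmin of epithelial and stromal cells, was above 0 in 1 library, with 0.63 TPM in the library labelled knockout 1, and the other 3 listed it at 0. It was under the filter on low values and was not tested.

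Tslp was the member with the largest positive difference. Controls 1 and 2 had 71.7 and 38.1 TPM, against 239 TPM in the library labelled knockout 1 and 134 TPM in the library labelled knockout 2. Both knockout values lay above both controls, and the knockout mean (187 ± 73.9 TPM, SD, n = 2) was 3.40 times the control mean (54.9 ± 23.8 TPM, SD, n = 2). The log2 fold change was 1.76 ± 0.43 (SE; 95% interval 0.79 to 2.72), with a limma adjusted p of 0.147 (unadjusted p = 0.00269). It passed the threshold in no alternative fit with all 4 libraries (smallest limma adjusted p = 0.106). The log2 fold change was 2.17 when the library labelled knockout 2 was left out. Leaving out the other clone instead gave 1.34. Within libraries the ratio of Tslp to Csf1 was 0.137 and 0.110 for the controls, compared with 2.60 and 1.03 for the libraries labelled knockout. Several epithelial markers were also higher in the libraries labelled knockout, such as Krt19 (189 and 209 against 751 and 859 TPM) and Epcam (179 and 166 against 532 and 565 TPM), and 5 of the 10 epithelial markers had an unadjusted limma p under 0.05, all higher, against 9.25% of all tested genes. Other markers of the list did not share this: Cldn7 was 163 and 95.1 against 131 and 60.0 TPM, and the groups of Cldn7, Esrp1 and Grhl2 overlapped. Their part in the difference of Tslp was not tested.

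**Figure D2:**
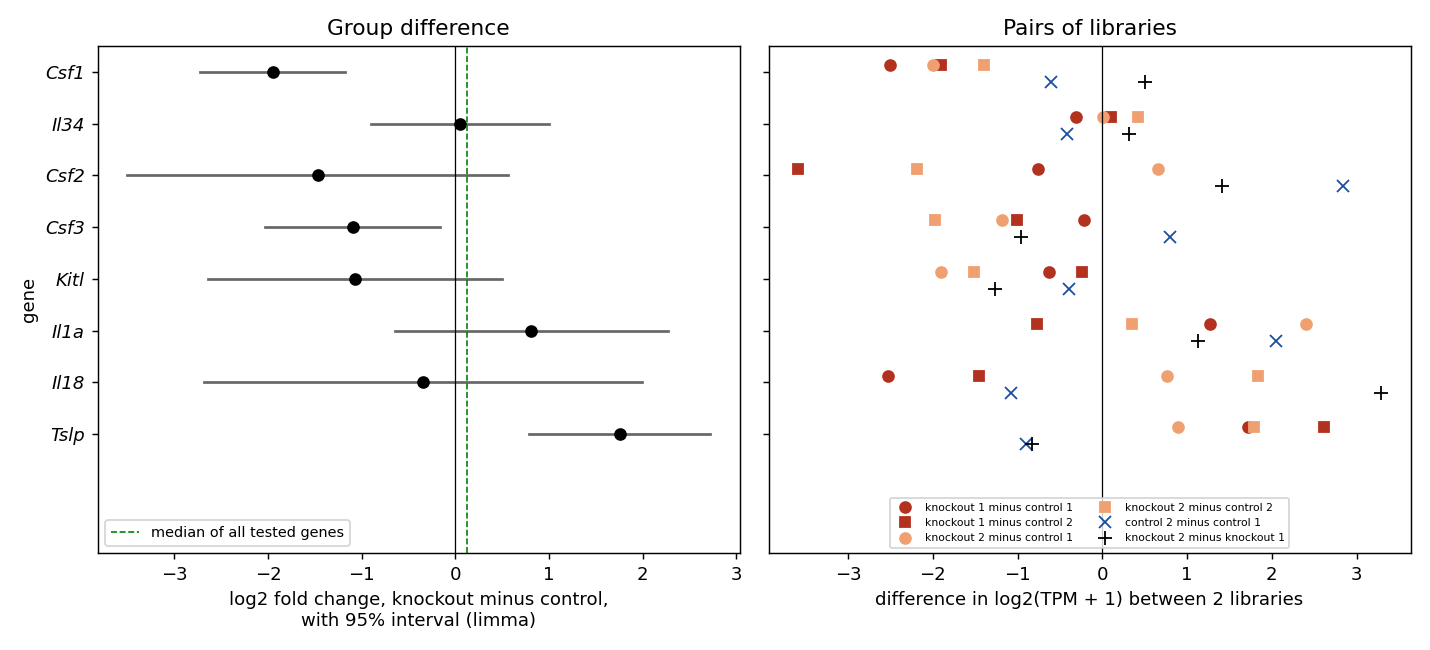
Left, log2 fold change of each of the 8 tested members, libraries labelled knockout minus controls, with its 95% interval from limma; the dashed line is the median of all tested genes (0.13). Right, differences in log2(TPM + 1) for each pair of libraries: for Csf1 the 4 knockout-control differences lie from -2.50 to -1.40, beyond both differences within groups, whereas for Csf2, Il1a and Il18 a difference within a group is larger in size than at least 3 of the 4 between groups.

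Across the 8 tested members, 0 passed an adjusted p of 0.05 in limma, where 0.0537% of all tested genes did (6 of 11167). An unadjusted p under 0.05 was reached by 3 of 8 (Csf1 and Csf3 lower, Tslp higher), against 14.9% of all tested genes. The groups did not overlap for 4 of 8, against 47.6% of all tested genes, so this share was near the background. Both knockout values were lower for 3 of them (background 18.3%) and higher for 1 (background 29.2%). The median log2 fold change of the tested members was -0.71, and that of all tested genes was 0.13, a shift that quantile normalization took to 0.002. An exact permutation test on 2 against 2 libraries has 0.333 as its smallest two-sided p, so it was not used for single genes.

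The 9 genes together summed to 926 and 1033 TPM in the controls and 654 and 592 TPM in the libraries labelled knockout. Csf1 and Csf3 held 84.0% and 76.1% of that sum in the controls, and their share was 47.4% and 40.9% in the other 2 libraries. Csf1 alone held 56.6% and 33.4% against 14.0% and 22.1%, whereas the share of Csf3, at 27.4% and 42.7% against 33.4% and 18.9%, overlapped between the groups. Tslp held 7.7% and 3.7% of the control sums, against 36.5% and 22.7% with the knockout label. The leading transcript was Csf1 in control 1, Csf3 in control 2, Tslp in the library labelled knockout 1 and Il1a in the library labelled knockout 2, so the library order at the top was not the same within either group. In bulk RNA, fewer cells expressing a gene and less RNA per cell cannot be told apart.

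**Figure D3:**
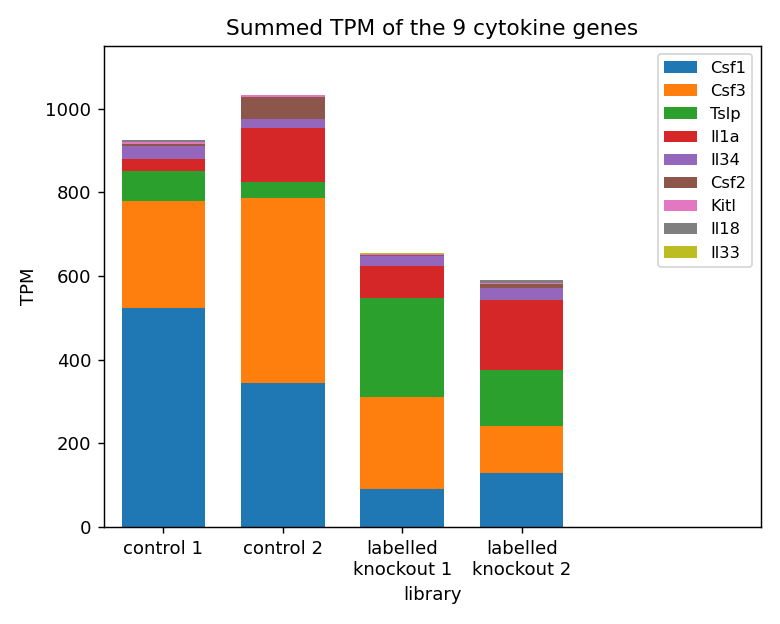
Stacked TPM of the 9 genes in each library, from 0, with 1 bar per library. The Csf1 and Csf3 segments make up 84.0% and 76.1% of the control bars and 47.4% and 40.9% of the bars of the libraries labelled knockout.

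Of the 16 genes for receptors of these cytokines, 8 were listed at 0 in all 4 libraries, among them Kit, Csf3r, Csf2ra, Il1rl1 (the IL-33 receptor), Il18r1 and Il7r. Of the 6 tested receptors, 0 passed the adjusted threshold in limma and 2 had an unadjusted p under 0.05, both higher in the libraries labelled knockout, against 9.25% of all tested genes. Csf1r, the receptor of CSF1 and IL-34, was 1.22 TPM in control 1, listed at 0 in control 2, and 22.2 and 5.07 TPM in the libraries labelled knockout 1 and 2 (log2 fold change 2.99 ± 0.80 SE, limma adjusted p = 0.164). Its level and that of Csf1 thus lay on opposite sides of the controls in both libraries labelled knockout. Csf1r met the filter on low values only with the libraries labelled knockout, so its count as a higher gene is not independent of the filter. Sdc1, a proteoglycan that also binds IL-34, was 79.4 and 69.1 TPM in the controls and 183 and 138 TPM in the libraries labelled knockout (limma adjusted p = 0.195). Crlf2, the TSLP receptor chain, was 39.6 and 38.2 TPM in the controls and 24.3 and 42.8 TPM in the libraries labelled knockout, and its partner Il7r was listed at 0 throughout. Il1r1 was present at 1.31 to 6.75 TPM with overlapping groups, and the decoy receptor Il1r2 was at 0.

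The list of inhibitors and processing enzymes showed no single direction. It holds metalloproteinases such as Adam10, Adam17, Mmp9 and Mmp14 besides genes that act on the IL-1 family. Of the 22 genes listed, 16 were tested and the rest were at or near 0. Il1rn, the IL-1 receptor antagonist, and Pycard, the inflammasome adaptor, were listed at 0 in all 4 libraries, and Il18bp, which neutralizes IL-18, was 0.91 and 1.00 TPM in the controls and listed at 0 in both libraries labelled knockout. None of the 16 tested passed the adjusted threshold in limma, and 4 had an unadjusted p under 0.05, 3 higher and 1 lower, against 14.9% of all tested genes. Mmp14, a membrane-bound metalloproteinase, was 130 and 53.0 TPM in the controls and 194 and 345 TPM in the libraries labelled knockout. Capn1, a calpain subunit of the family that processes IL-1 alpha, was 61.2 and 51.2 TPM in the controls and 87.4 and 106 TPM in the libraries labelled knockout. Casp4, the caspase-11 gene, was 25.5 TPM in control 1, 3.86 TPM in control 2, and 1.16 and 2.43 TPM in the libraries labelled knockout. Gsdmd, the pore protein cut by these inflammatory caspases, was 32.9 and 11.5 TPM in the controls and 11.1 and 42.6 TPM in the libraries labelled knockout 1 and 2, with overlapping groups.

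Of 21 related cytokine genes, 17 were found in the files and 9 of these were at 0 in all 4 libraries, including Il25, Il17c and Il13, and 6 were tested. In limma 0 of the 6 passed the adjusted threshold and 1 had an unadjusted p under 0.05, against 14.9% of all tested genes. This was Flt3l, a growth factor for dendritic cell precursors, at 11.1 and 16.2 TPM in the controls, with 7.17 TPM in the library labelled knockout 1 and 0 listed for the other clone (log2 fold change -2.33 ± 0.92 SE, limma adjusted p = 0.283). Lif, an IL-6 family cytokine singled out after its values were seen, was the most abundant of the list, at 126 and 140 TPM in the controls and 105 and 72.5 TPM in the libraries labelled knockout (log2 fold change -0.60 ± 0.33 SE, limma adjusted p = 0.430). The groups of Lif did not overlap, which was the case for 47.6% of all tested genes.

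Regulators that act on cytokine genes and their mRNAs showed more low p-values, mostly with lower levels in the libraries labelled knockout. Of 33 tested genes in this list, 0 passed the adjusted threshold in limma (smallest adjusted p = 0.0676), 8 were lower with an unadjusted p under 0.05 and 1 was higher, against 5.68% of all tested genes lower and 9.25% higher. The median log2 fold change of the list was -0.13, against 0.13 for all tested genes. Relb, an NF-κB subunit of the non-canonical pathway, was 122 and 118 TPM in the controls and 29.5 and 21.6 TPM in the libraries labelled knockout (log2 fold change -2.20 ± 0.36 SE, limma adjusted p = 0.0676). Nfkb2, its usual partner, was 355 and 342 TPM in the controls and 161 and 136 TPM in the libraries labelled knockout. Rela was 159 and 147 TPM in the controls and 85.9 and 52.9 TPM in the libraries labelled knockout, and Nfkbia, an NF-κB inhibitor that is itself an NF-κB target, was 435 and 535 TPM against 112 and 251 TPM. The groups did not overlap for these 4 genes, which were named for a low p-value. Nor did they for Nfkb1, at 80.2 and 65.4 against 59.9 and 65.0 TPM, a smaller difference (log2 fold change -0.21 ± 0.34 SE, limma adjusted p = 0.812). The groups of Rel, Nfkbiz and Tnfaip3 overlapped. In the whole list of 33 tested genes, 11 lay below both controls and 8 above, against 18.3% and 29.2% of all tested genes.

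The 3 AP-1 subunits with an unadjusted p under 0.05 were lower (Fosl1 and Jun) or higher (Fos) in the libraries labelled knockout. Fosl1 was 247 and 354 TPM in the controls and 40.1 and 6.07 TPM in the libraries labelled knockout (log2 fold change -4.12 ± 0.70 SE, limma adjusted p = 0.0676). Fos was 8.77 and 7.06 TPM in the controls and 25.5 and 155 TPM in the libraries labelled knockout (log2 fold change 2.86 ± 0.74 SE, limma adjusted p = 0.159). Jun, named here after its values had been seen, was 184 and 216 TPM against 34.2 and 116 TPM, a log2 fold change of -1.64 ± 0.52 (SE; limma adjusted p = 0.213). Of the proteins that bind AU-rich elements, Zfp36 was 38.7 and 30.9 TPM in the controls and 21.4 and 40.9 TPM in the libraries labelled knockout, with overlapping groups. Hnrnpd, which encodes AUF1, was 44.2 and 60.2 TPM against 12.5 and 25.2 TPM (limma adjusted p = 0.209). It was named with Zfp36 after their values had been seen. Other such proteins differed in direction: Khsrp was 80.4 and 42.5 against 83.7 and 135 TPM, and Elavl1 was 33.8 and 25.0 against 23.8 and 19.8 TPM. The groups of Zfp36l1 and Zfp36l2 overlapped. The part of these regulators in the levels of the cytokine genes was not tested.

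**Figure D4:**
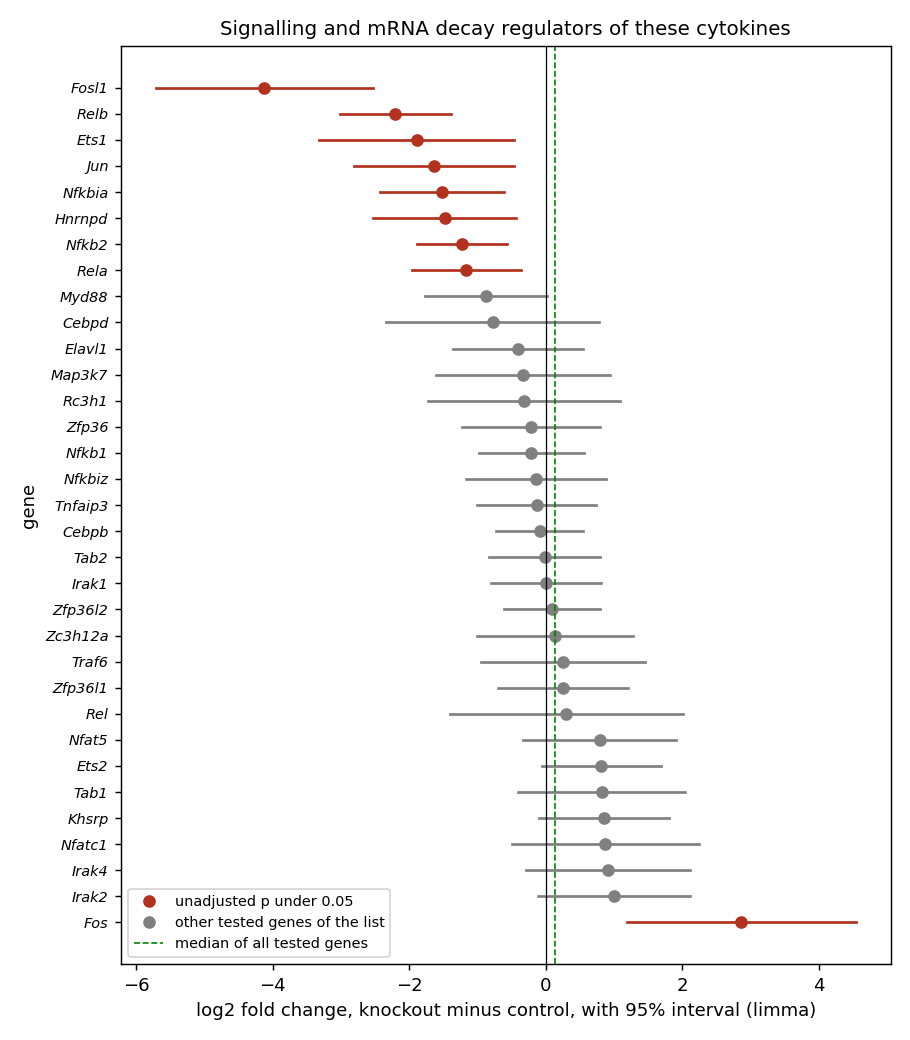
Log2 fold change (libraries labelled knockout minus controls, horizontal axis) with its 95% interval from limma for the 33 tested signalling and mRNA decay regulators; red marks an unadjusted p under 0.05 and the dashed line the median of all tested genes (0.13). Of the 9 red genes, 8 lie below 0, with Fosl1 at -4.12 and Relb at -2.20, and Fos lies above 0 at 2.86.

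For each tested member, the gene with the most similar profile over the 4 libraries was found by the Euclidean distance between centred log2(TPM + 1) values. Nearest to Csf1 was Fam118b (distance 0.155), at 99.2, 61.8, 14.7 and 24.6 TPM in control 1, control 2 and the libraries labelled knockout 1 and 2. Krt13 was nearest to Tslp (0.0887), at 0.98, 0, 5.17 and 2.70 TPM in the same order, and Mfge8 to Il34 (0.0209). Cobl was nearest to Il18 (0.107), Ppbp to Il1a (0.299), Rad54b to Kitl (0.0448), Fzd9 to Csf3 (0.119) and Rnf223 to Csf2 (0.599). Krt13, Ppbp and Fzd9 were weak, with highest values of 5.17, 3.38 and 2.55 TPM, so the pseudocount of 1 weighs on their profiles. The larger distance for Csf2 says that no other tested gene followed its 4 values as closely as the other members were followed. With 4 libraries and 11167 genes, close profiles are to be found for most genes, and the likeness is a description only.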

How the data were processed

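Poly(A)-selected RNA of 4 cultures was sequenced after fragmentation, poly(A) tailing and template-switching amplification, with no molecular identifiers mentioned in the labels' protocols. The authors deposited 1 table per library with gene-level TPM, per the file headers. STAR 2.6.0, RSEM 1.3.0 and the build mm10 are named in the submitters' processing notes; the annotation is not given in the sources used here. TPM keeps no read number, so count tests, counting intervals and detection floors could not be used, and the tests for counts planned for that case were not run.

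Genes with at least 1 TPM in at least 2 libraries were tested (11167 of 24411) on log2(TPM + 1) with limma 3.58.1 in R 4.3.3 (eBayes with trend, two-sided, Benjamini-Hochberg over all tested genes, threshold 0.05). The pseudocount of 1 understates changes of weak genes. On simulated data for these genes and this comparison, 51% of 200 genes shifted by a log2 value of 2, and 97% of 200 shifted by 4, were recovered, with 19 and 20 false calls. In both simulations the share of false calls among all calls was above the threshold of 0.05. Genes were matched by symbol, with older symbols from the RefSeq table of GRCm38.p6; 3′ UTRs, taken from the transcript with the longest coding sequence, came from GENCODE M21.

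The members and lists were chosen with earlier results of these data known. Named genes were the members, up to 6 genes per list with an unadjusted p under 0.05, the receptors, Il1rn, Il18bp, Il1b, Casp1, Casp4 and Gsdmd by level, and the nearest profile of each member. Some genes that met this rule are not reported here. Alternatives were a pseudocount of 0.1, no filter (any gene above 0), a mean of at least 5 TPM, eBayes without trend, robust eBayes, quantile normalization, a block for the replicate number, and leaving out each library.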

Additional observations from a re-analysis of the deposited data

How the results depend on the processing

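Of all tested genes, 6 passed the adjusted threshold in limma as reported; this count was 0 under quantile normalization, 0 without the trend, 0 at a pseudocount of 0.1, 0 when unfiltered, 55 with a mean of at least 5 TPM, 52 with robust eBayes and 2 with the replicate block; it ranged from 0 to 1034 when 1 library was left out. The corresponding unadjusted counts ranged from 1516 to 1862 with all 4 libraries, against 1667. The number of members past the adjusted threshold was 0 as reported. It was 1 with a mean of at least 5 TPM and 1 with robust eBayes, in both cases Csf1 (-1.95). In fits that leave out 1 library, the lone library of a group is assumed to vary like the others. Only effect sizes are given for those fits. Leaving out 1 library gave ranges of -2.25 to -1.65 for Csf1, -2.89 to -0.05 for Csf2, -1.58 to -0.61 for Csf3, -1.70 to -0.43 for Kitl and 1.31 to 2.21 for Tslp. The sign turned for Il18 (-1.99 to 1.30, positive without control 1 at 0.19), Il1a (-0.21 to 1.84) and Il34 (-0.15 to 0.26, with -0.10 without the library labelled knockout 2), and for Il34 under quantile normalization (-0.13). The replicate numbers name different lines or clones and did not pair the libraries (deviations of same-numbered libraries correlated at -0.081 across genes); with the replicate block no member passed the threshold (Csf1 adjusted p = 0.15). Kitl and Il18 were under the filter on a mean of at least 5 TPM. The cause of these changes was not tested, and with unknown depth a gene at 0 cannot be told from one out of reach.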
